A study of Homo sapiens with 22 samples.

Results

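GR3 is a gefitinib-resistant derivative of PC9, a human cell line established from a lung adenocarcinoma and driven by an activating EGFR mutation. Its gene expression without inhibitor was compared with that of PC9 cells labelled as tolerant to gefitinib or to WZ4002, also without inhibitor. The comparison used 6 of the 22 RNA-seq libraries of the series, chosen by their labels: 2 of PC9-GR3, 2 of PC9 gefitinib-tolerant and 2 of PC9 WZ4002-tolerant cells, each given vehicle for 24 h. The 2 libraries of parental PC9 cells given vehicle served as the reference for the tolerant state. Gefitinib inhibits EGFR reversibly, and WZ4002 binds it covalently and also inhibits the gatekeeper-mutant receptor. In the published work on these cells GR3 is the line that acquired the gatekeeper mutation late, from drug-tolerant cells, so the comparison asks what a late resistant line keeps or drops of the tolerant state. The labels do not say whether GR3 is 1 clone, nor how long the tolerant cells were without drug before vehicle, so tolerant cells given vehicle may be cells under or after withdrawal.

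Drug-tolerant cells are the small fraction of a sensitive population that survives an inhibitor without a resistance mutation, growing slowly or not at all. The state is known to be reversible and is commonly described with changes in adhesion and matrix genes, in receptors such as AXL, in metabolism and in stress pathways. A cell with a gatekeeper mutation, by contrast, signals through EGFR in the presence of the first inhibitor. Levels are given in CPM as deposited (read counts scaled to the library total), and differences as log2(CPM + 1), a scale that understates changes of genes near 0.

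The 6 libraries held 31.1 to 42.8 M reads each, and the listed genes received 18.4 to 23.4 M of them. The listed genes took 54.6% of the reads in both GR3 libraries and 58.7 to 60.6% in the tolerant ones, and the other reads are not described. The GR3 libraries differed from each other more than the libraries of any other of the 4 vehicle groups used here: the SD of the log2 difference between the libraries of a pair was 0.460 in GR3, 0.289 in gefitinib-tolerant, 0.292 in WZ4002-tolerant and 0.302 in parental cells. The labels do not say whether the libraries of a pair came from separate cultures, and a p-value here reflects library-to-library spread alone, which may be technical. All 11 epithelial and lung adenocarcinoma markers were in the table, with summed levels of 3102 to 3306 CPM in GR3 against 3919 to 4872 in tolerant and 4570 to 4994 in parental cells. The lung lineage genes among them were near 0: NKX2-1 was at 0.79 and 0.86 CPM in GR3 and at 0.08 to 0.29 in tolerant cells, and NAPSA stayed under 1 CPM in all 6 libraries. Leukocyte markers (3 of 12 in the table) summed to 3.25 to 4.53 CPM in GR3 and 2.46 to 5.01 in tolerant cells, fibroblast markers (6 of 12) to 9.44 to 11 and 5.6 to 13, and endothelial markers (5 of 10) to 14.5 to 22.9 and 30.1 to 35.8.

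GR3 differed from the tolerant cells across much of the transcriptome. Several laminin, integrin, NF-kB feedback and TEAD target genes were lower in GR3, matrix genes passed in both directions, and most amino acid stress genes tested, some lipid synthesis genes and a set of genes nearly silent in tolerant cells were higher. AXL and its ligand GAS6 did not pass between GR3 and tolerant cells and were above parental levels in both. Of 15485 genes tested, 5132 (33.1%) differed: 2601 (16.8%) were higher and 2531 (16.3%) lower in GR3 than in the mean of the tolerant groups, at an adjusted p under 0.05 by limma with Benjamini-Hochberg adjustment. At least a 2-fold difference was reached by 584 (3.77%) of them upward and 642 (4.15%) downward. The counts of gene list members given below for GR3 against tolerant cells are to be read beside the 16.8% and 16.3%. In bulk RNA, fewer cells with a transcript and less of it per cell cannot be told apart. Passing also against each tolerant group alone left 1676 genes higher (10.8%) and 1736 lower (11.2%). The GR3 libraries lay above all 4 tolerant libraries in 3827 genes (24.7%) and below all 4 in 3616 (23.4%), so such separation was common. Without GR3 replicate 2 the counts were 1345 higher and 1634 lower, and with weights for the spread of each group they were 1601 and 1661.

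The tolerant groups were compared with each other before they were averaged. No gene passed between WZ4002-tolerant and gefitinib-tolerant cells (0 called, 0.00%), with 132 genes at an unadjusted p under 0.05 by limma and 118 by limma-voom on recovered reads, which also called 0. For 95.6% of genes the 95% interval of that difference excluded a log2 difference of 1. Some genes described below varied widely within a tolerant group: FN1 was at 1055 and 2362 CPM in the gefitinib-tolerant libraries and at 706 and 2044 in the WZ4002-tolerant ones.

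Several of the genes with the largest losses in GR3, though not all, encode secreted or surface proteins. PXDN, a peroxidase that crosslinks basement membrane collagen, was at 0.07 and 0.25 CPM in GR3 (3 and 10 reads), at 250 and 293 in gefitinib-tolerant, 243 and 276 in WZ4002-tolerant and 269 and 216 in parental cells. It was therefore near 0 in GR3 alone among these groups, a log2 difference from tolerant cells of -7.84 ± 0.14 (SE, n = 2 GR3 and 4 tolerant libraries, limma adjusted p = 1.66e-15). GABRE, a subunit of the GABA-A receptor, and TCIM, a regulator of WNT signalling, followed the same pattern. GABRE was at 0.05 and 0.1 CPM in GR3 against 28.5 to 46.3 in tolerant and 35.4 and 38.7 in parental cells, and TCIM at 0.09 and 0.13 against 10.5 to 21.4 and 16.9 and 16.4. In vehicle these genes did not pass between tolerant and parental cells, where the log2 difference was 0.13 for PXDN, 0.02 for GABRE and -0.29 for TCIM (adjusted p = 0.513, 0.978 and 0.437). Under drug they differed: TCIM was higher in tolerant than in parental cells by 1.77 in gefitinib and 2.59 in WZ4002 (adjusted p = 0.00046 and 1.8e-05), PXDN was higher by 0.90 and 0.79 (adjusted p = 0.000646 and 0.00143), and GABRE was lower in WZ4002 (-1.40, adjusted p = 0.00889) but did not pass in gefitinib (-0.75, adjusted p = 0.143). KRT13, an epithelial keratin, was at 4.43 and 6.58 CPM in GR3, at 143 to 238 in tolerant and at 344 and 412 in parental cells. CEACAM6, a GPI-anchored adhesion protein, was at 45.5 and 36.4 CPM in GR3, at 605 to 1034 in tolerant cells and at 1824 and 1820 in parental cells. Both were lower in tolerant than in parental cells as well (log2 difference -1.05 and -1.17, adjusted p = 0.00316 and 0.0105), and lower still in GR3.

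Another set of large losses consisted of genes that tolerant cells had raised over parental cells. FN1, encoding fibronectin, was at 28.9 and 41.3 CPM in GR3 and at 706 to 2362 in tolerant cells, beside 18.5 and 22 in parental cells (GR3 minus tolerant -5.27 ± 0.39, adjusted p = 1.54e-07). ADAMTS9, a matrix protease, was at 3.03 and 2.21 CPM against 31.4 to 64.5 in tolerant cells, and IGFN1 at 0.51 and 0.2 against 17.2 to 29.3. For ADAMTS9 and IGFN1 the difference of GR3 from parental cells was -0.14 and -0.07, with adjusted p of 0.813 and 0.915. CST1, a secreted cystatin, was at 1.1 and 4.9 CPM against 58.4 to 137. Reads of CST1 may be shared with its near-identical copy CST4 (0.12 and 1.02 CPM against 13.1 to 21.9), so its value is uncertain.

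The largest gains were in genes at or under a few CPM in tolerant cells. AADACL3, a predicted lipid esterase, was at 12.6 and 13.4 CPM in GR3, at 0.06 to 0.33 in tolerant and at 0.03 and 0.05 in parental cells, a log2 difference from tolerant of 3.58 ± 0.17 (adjusted p = 1.97e-09). KISS1, which encodes the secreted kisspeptin precursor, was at 17.3 and 14.5 CPM against 0.47 to 1.03 in tolerant and 1.16 and 1.09 in parental cells (3.25 ± 0.22, adjusted p = 7.78e-08). For AADACL3 and KISS1 the GR3 libraries were alike, and they lay above every tolerant and parental library. Lying apart from the tolerant libraries was a condition of the choice of these genes. Over all genes, the GR3 libraries lay above every tolerant library in 24.7%. SUSD2, a membrane protein with a sushi domain, was at 79.9 and 158 CPM against 2.41 to 4.48 (4.66 ± 0.58, adjusted p = 2.12e-05). The imprinted non-coding RNA H19 was at 12.3 and 69.1 CPM against 0.21 to 0.66, and WNT6, a secreted WNT ligand, at 24.9 and 35.6 against 1.47 to 3.59. DMBT1, a scavenger receptor glycoprotein of mucosal surfaces, was at 12.6 and 98.4 CPM in GR3 and at 0.22 to 0.64 in tolerant cells, while parental cells were at 29.8 and 133. Its call was lost without GR3 replicate 2 (adjusted p = 0.0531). METTL7A, AOC1, TNS1 and RASL11A completed the 10 largest gains, with log2 differences of 3.11 to 3.82. Of these 10 genes, 3 were lower in tolerant than in parental cells: DMBT1, METTL7A and RASL11A. Over all genes 13.1% were. The 10 were chosen as high relative to the same tolerant libraries, which favours genes that are low in tolerant cells.

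**Figure D1:**
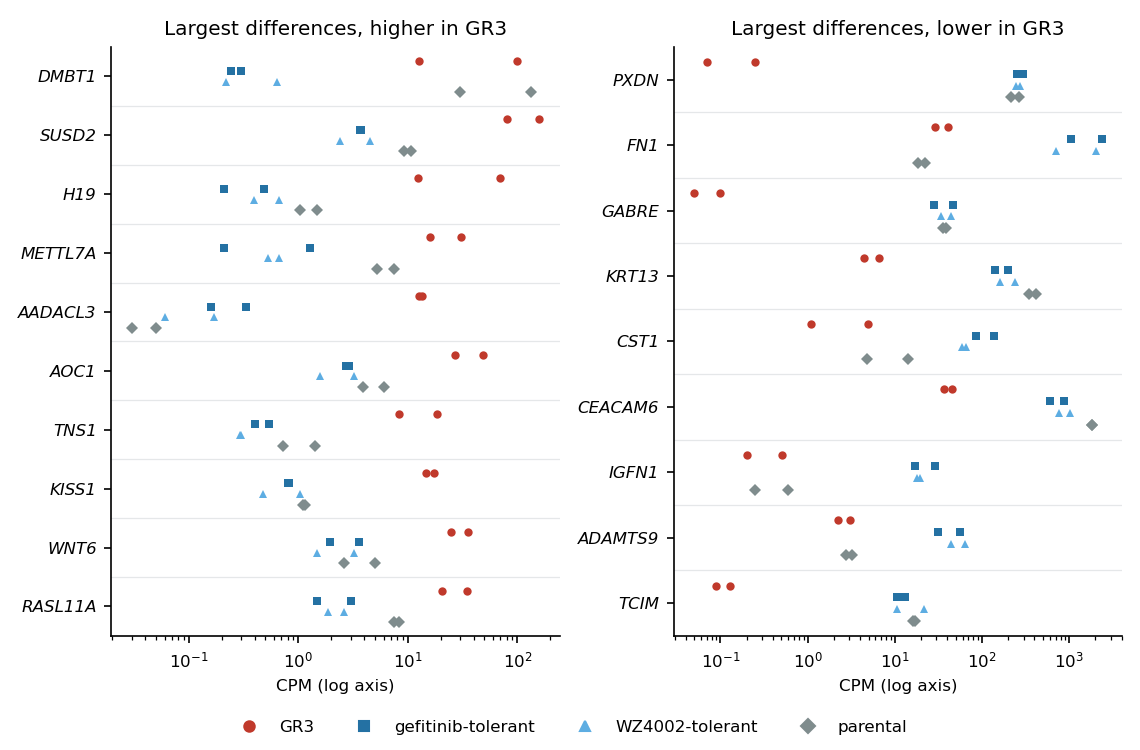
CPM in each vehicle library (log axis, 1 point per library, 2 per group) of the genes with the largest higher and lower differences of GR3 from tolerant cells that are reported here. PXDN, GABRE and TCIM lie far left in GR3 only, while FN1, IGFN1 and ADAMTS9 in GR3 lie near the parental points.

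Integrin genes that passed were all lower in GR3, while matrix genes passed in both directions. Laminins and collagens form the matrix that integrins bind, and LAMA3 and LAMB3 encode laminin chains through which epithelial cells are anchored by integrins. Of 12 integrin genes tested, 6 were lower and 0 higher in GR3, with a median log2 difference of -0.65, beside 0.00 over all genes. In tolerant against parental cells 7 of the 12 were higher and 0 lower (all genes: 12.8% higher, 13.1% lower), and in GR3 against parental cells 1 was higher and 0 lower (all genes: 9.77% and 11.1%). These comparisons share libraries and are given only side by side. ITGB6 was at 58.1 and 53.2 CPM in GR3, 160 to 275 in tolerant and 77.5 and 71.8 in parental cells (-2.01 ± 0.28, adjusted p = 6.58e-05). ITGB1, the beta subunit shared by most matrix-binding integrins, was at 201 and 184 CPM against 435 to 545 in tolerant and 260 and 211 in parental cells. ITGA2, a collagen receptor subunit, and ITGB8 were also lower, with log2 differences of -1.79 and -1.49. For ITGB6, ITGB1 and ITGA2 the GR3 libraries lay below every tolerant and every parental library. GR3 against parental cells did not pass in these genes (adjusted p = 0.412, 0.259 and 0.386). Over all genes, the GR3 libraries lay below every tolerant library in 23.4%. The share below the parental libraries as well was not counted. ITGAV and ITGA3 passed with all libraries, but not without GR3 replicate 1.

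Of 27 collagen and matrix genes tested, 13 were lower and 7 higher in GR3, with a median of -0.63. The same list had 14 higher and 1 lower in tolerant against parental cells (median 0.94), and 11 higher and 3 lower in GR3 against parental cells (median 0.41). LAMA3 was at 41.5 and 57.5 CPM against 327 to 456 in tolerant and 55.4 and 48.1 in parental cells (-3.00 ± 0.23, adjusted p = 1.94e-07). LAMB3 was at 121 and 206 CPM in GR3, at 351 to 487 in tolerant and at 196 and 163 in parental cells (-1.44, adjusted p = 3.58e-05). GR3 against parental cells did not pass for LAMA3 (log2 difference -0.08, adjusted p = 0.883). Among the members that were higher, LOX, which crosslinks collagen, was at 29.7 and 19.6 CPM in GR3 against 3.33 to 4.9 in tolerant and 15.8 and 11.8 in parental cells (2.30 ± 0.35, adjusted p = 0.000157). COL18A1, COL4A1, COL8A1 and COL13A1 were higher in GR3 too, by 0.90 to 1.84. THBS1, a secreted glycoprotein that activates latent TGF-beta, was intermediate, at 96.3 and 112 CPM in GR3 between 208 to 441 in tolerant and 22 and 16.1 in parental cells, and passed in both directions (-1.61 against tolerant, 2.40 against parental).

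YAP and TAZ are coactivators that act through TEAD factors when cells spread on stiff matrix. The list of their targets also holds the factors YAP1, WWTR1 (TAZ), TEAD1 and TEAD4. Of 21 of its genes tested, 8 were lower and 2 higher in GR3 (median -0.17), where tolerant cells had 13 higher and 0 lower than parental cells (median 0.78). ANKRD1, a nuclear ankyrin protein often used as a readout, was at 6.23 and 11.2 CPM in GR3, 37.8 to 98.7 in tolerant and 6.04 and 6.27 in parental cells (-2.92 ± 0.36, adjusted p = 2.12e-05). F3, encoding tissue factor, was at 92.5 and 111 CPM against 367 to 542 and 65.5 and 60 (-2.12 ± 0.22, adjusted p = 4.04e-06). IGFBP3, a binding protein for insulin-like growth factors, was at 88.1 and 75 CPM in GR3, below both the tolerant (641 to 1140) and the parental cells (276 and 195). AXL, also in this list, did not follow these genes, as described below.

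TGF-beta signalling genes counted 7 lower and 3 higher of 19 (median -0.26), with 1 higher when either GR3 library was left out. INHBA, the activin beta A subunit, was at 6.56 and 4.19 CPM in GR3 against 36.5 to 97.2 in tolerant and 10 and 5.18 in parental cells (-3.42 ± 0.38, adjusted p = 7.82e-06), and the receptor TGFBR2 was lower by -1.41. Of 16 NF-kB feedback and cytokine genes, 5 were lower and 1 higher (median -0.46), beside 6 higher and 2 lower in tolerant against parental cells (median 0.67). TNFAIP3, which encodes the ubiquitin-editing inhibitor A20, was at 15 and 11.7 CPM in GR3, at 89.9 to 169 in tolerant and at 13.8 and 17.1 in parental cells (-3.23 ± 0.26, adjusted p = 3.68e-07). BIRC3, an apoptosis inhibitor induced by NF-kB, was at 12.7 and 10.8 CPM against 34.3 to 94.6, and the cytokine IL11 at 0.44 and 1.09 against 3.57 to 14.8. In all 3 genes the GR3 libraries lay below every tolerant library, as they did in 23.4% of all genes tested. ICAM1 did not pass (45.6 and 70.1 CPM against 49.8 to 95.2, adjusted p = 0.485), with parental cells at 18.9 and 27.2.

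Sequences upstream of the start are shown for 2 of these genes, to let a reader see a motif of the factor their list is named for. They are the 250 bases before a RefSeq start on GRCh38.p14, 5′ to 3′ on the gene's strand, with the motif in capitals. The genes were picked for display after matches and values were seen. Where a gene had several windows, the first that held a match was shown, here and for the genes further below. ANKRD1 lies at chr10:90921088-90921337 on the minus strand and holds 2 copies of the TEAD motif GGAATG. TNFAIP3 lies at chr6:137867009-137867258 on the plus strand and holds an NF-kB consensus element, written here as its reverse complement. Searched on both strands, GGAATG was in 11.9% of 35116 such windows in the genome and in 8 of 19 windows of the TEAD list, and the NF-kB element was in 0.527% and in 7 of 21 windows of the NF-kB list. A match is a string of letters, not a shown site.
ANKRD1: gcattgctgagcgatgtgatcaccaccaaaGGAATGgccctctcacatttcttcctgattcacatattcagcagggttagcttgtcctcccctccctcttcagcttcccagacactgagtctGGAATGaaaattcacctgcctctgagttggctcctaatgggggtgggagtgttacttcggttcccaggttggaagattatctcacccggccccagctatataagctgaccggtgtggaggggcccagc
TNFAIP3: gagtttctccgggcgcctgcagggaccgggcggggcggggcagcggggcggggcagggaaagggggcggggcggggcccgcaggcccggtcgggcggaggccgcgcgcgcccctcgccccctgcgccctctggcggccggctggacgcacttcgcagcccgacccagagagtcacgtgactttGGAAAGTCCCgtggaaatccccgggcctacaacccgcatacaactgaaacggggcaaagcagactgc

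**Figure D2:**
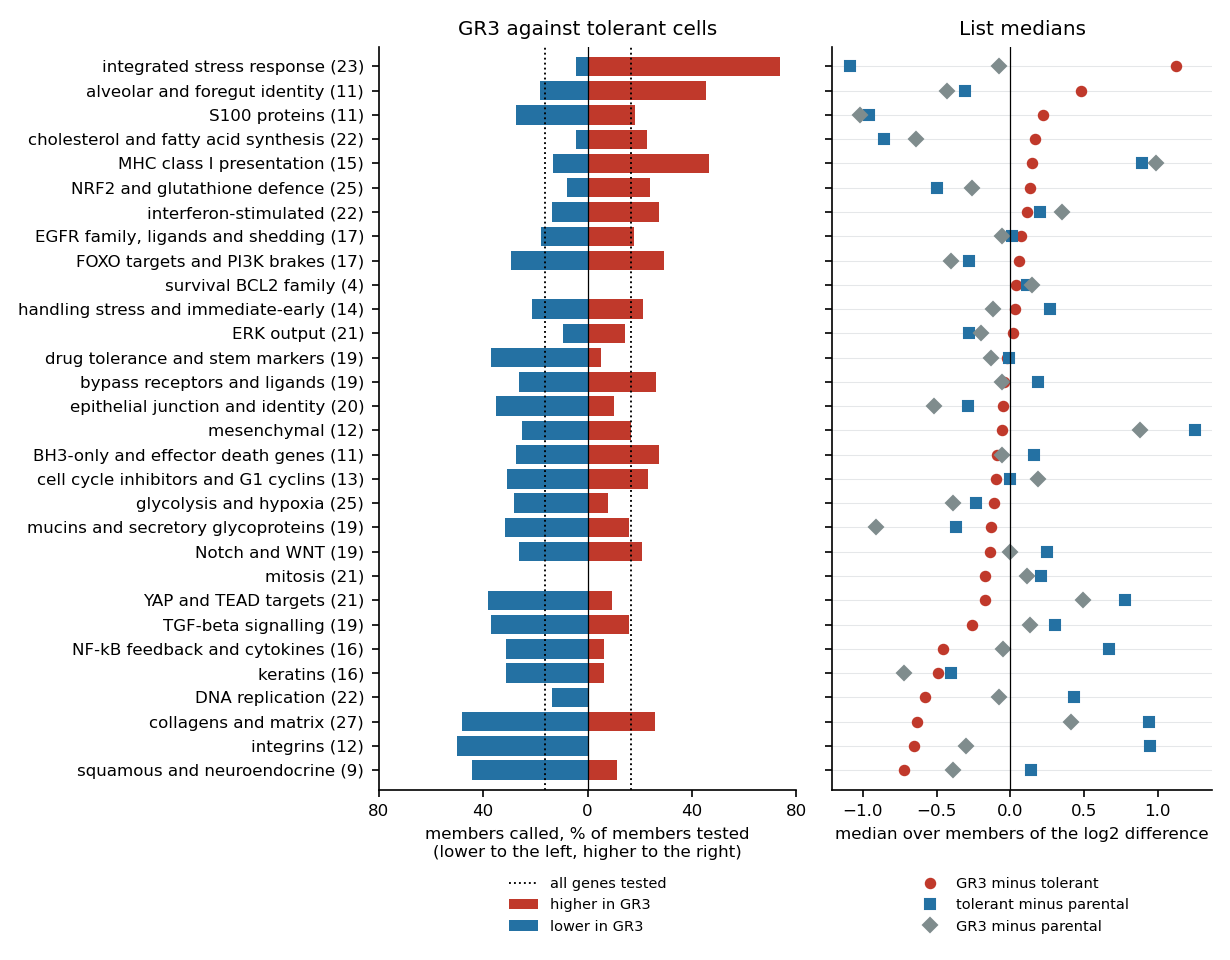
Left, the share of tested members of each of 30 gene lists called higher (right) or lower (left) in GR3 than in tolerant cells, with dotted lines at the share over all genes tested (16.8% and 16.3%). Right, list medians of the log2 difference for GR3 minus tolerant, tolerant minus parental and GR3 minus parental cells, which share libraries. The integrated stress response has 17 of 23 members higher, and integrins 6 of 12 lower.

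Of the 30 lists, the integrated stress response had the largest share of members higher in GR3. In this pathway phosphorylation of eIF2 alpha favours translation of ATF4, which then induces amino acid synthesis and transport genes. Of 23 genes tested, 17 were higher and 1 lower in GR3 than in tolerant cells, with a median of 1.12. In tolerant against parental cells 16 were lower and 1 higher (median -1.09), and in GR3 against parental cells 0 were higher and 3 lower (median -0.08). ASNS, asparagine synthetase, was at 31.2 and 142 CPM in GR3, 8.49 to 13.8 in tolerant and 104 and 79.2 in parental cells (2.56 ± 0.37, adjusted p = 8.29e-05). CHAC1, which degrades glutathione, was at 5.04 and 17.2 CPM against 0.94 to 1.54 in tolerant and 14.4 and 8.73 in parental cells (2.16 ± 0.31, adjusted p = 8.26e-05). PHGDH, the first enzyme of serine synthesis, was at 243 and 441 CPM against 76 to 100 in tolerant and 372 and 326 in parental cells (1.89 ± 0.22, adjusted p = 1.13e-05). Every GR3 library lay above every tolerant library in these genes (24.7% over all genes), but GR3 replicate 2 was the higher one each time. Relative to the parental mean, the list median was -0.58 in GR3 replicate 1 and 0.34 in replicate 2, and between -1.30 and -1.06 in the 4 tolerant libraries. Without GR3 replicate 2, 11 of the 23 were still higher and 1 lower. DDIT4, PSAT1, TRIB3, CTH and SESN2 were higher by 1.61 to 2.46. ATF5, itself a transcription factor of the pathway, was the 1 member that was lower, at 26.5 and 19.2 CPM against 38.3 to 47.6.

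For ASNS and CHAC1, also picked for their matches, a window before a start held the composite motif TGATGNAA that ATF4 is known to use. This motif was in 3.14% of all windows and in 3 of 31 windows of the list, so most of the 19 members with a window did not hold these letters there. ASNS lies at chr7:97872409-97872658 on the minus strand, and CHAC1 at chr15:40953221-40953470 on the plus strand, where the match is the reverse complement.
ASNS: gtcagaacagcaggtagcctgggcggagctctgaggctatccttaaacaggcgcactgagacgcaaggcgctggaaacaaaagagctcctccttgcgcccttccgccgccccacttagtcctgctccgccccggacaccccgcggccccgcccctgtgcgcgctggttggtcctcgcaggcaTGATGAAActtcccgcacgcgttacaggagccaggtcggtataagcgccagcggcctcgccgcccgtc
CHAC1: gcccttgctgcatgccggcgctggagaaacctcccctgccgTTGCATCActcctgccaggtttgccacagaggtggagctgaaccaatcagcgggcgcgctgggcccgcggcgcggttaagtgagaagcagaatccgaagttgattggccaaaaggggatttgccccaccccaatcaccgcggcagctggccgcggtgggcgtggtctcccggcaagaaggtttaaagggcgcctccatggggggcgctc

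Lipid synthesis genes were only partly higher. Of 22 cholesterol and fatty acid genes tested, 5 were higher and 1 lower in GR3 (median 0.17), where tolerant cells had 12 lower than parental cells and 0 higher (median -0.86). SCD, which desaturates fatty acids, was at 510 and 444 CPM in GR3, 55.6 to 97.5 in tolerant and 486 and 587 in parental cells (2.67 ± 0.40, adjusted p = 0.000121). SREBF1, the factor that drives fatty acid synthesis, was at 176 and 247 CPM against 45.7 to 87 and 234 and 258 (1.73 ± 0.22, adjusted p = 2.6e-05). SREBF2, the factor for cholesterol synthesis, was at 118 and 130 CPM in GR3, within the tolerant range of 107 to 133 and below the 290 and 304 of parental cells (0.05 against tolerant, adjusted p = 0.864; -1.25 against parental, adjusted p = 0.000244). Relative to the parental mean the list median was -0.20 in GR3 replicate 1 and -1.08 in replicate 2, against -0.98 to -0.72 in tolerant cells, so the GR3 libraries lay on different sides of the tolerant range.

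NRF2 targets supply NADPH and detoxify oxidants, and their list also holds NFE2L2 (NRF2) and its regulator KEAP1. The list counted 6 higher and 2 lower of 25, beside 14 lower and 0 higher in tolerant against parental cells. TKT, a pentose phosphate enzyme, was at 727 and 793 CPM in GR3, 337 to 378 in tolerant and 674 and 687 in parental cells (1.12 ± 0.11, adjusted p = 2.37e-06). NQO1, a quinone reductase, was at 726 and 965 CPM against 266 to 366 and 639 and 700 (1.42 ± 0.15, adjusted p = 4.04e-06). AKR1B10, an aldo-keto reductase, was at 145 and 221 CPM, overlapping tolerant cells (69.2 to 231) and below the parental 585 and 824. Without GR3 replicate 2 the list had 3 higher and 2 lower.

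Some genes that set tolerant apart from parental cells did not pass between GR3 and tolerant cells. AXL, a receptor kinase often raised in EGFR inhibitor resistance, was at 142 and 128 CPM in GR3, 181 and 122 in gefitinib-tolerant and 124 and 137 in WZ4002-tolerant cells, against 15.8 and 12.3 in parental cells. GR3 minus tolerant was -0.04 ± 0.24 (95% interval -0.55 to 0.46, adjusted p = 0.912), and GR3 minus parental was 3.18 (adjusted p = 1.36e-06). GAS6, the ligand of AXL, was at 39.1 and 26.3 CPM against 24.1 to 62 in tolerant and 4.32 and 3.79 in parental cells. PROS1, another AXL-family ligand, was higher in GR3 than in tolerant cells by 1.52 (adjusted p = 0.000852), at 4.62 and 5.77 CPM against 0.58 to 2.64. SPOCK1, a secreted proteoglycan, was at 94.3 and 62.9 CPM in GR3, 80 to 142 in tolerant and 3.16 and 3.76 in parental cells (-0.49, 95% interval -1.24 to 0.25, adjusted p = 0.303). The repressor SNAI2 was at 7.66 and 12.2 CPM against 9.1 to 11.5 in tolerant and 3.71 and 2.84 in parental cells. On the low side, CASP14, a caspase of epidermal differentiation, was at 42.2 and 48.5 CPM in GR3. It was at 46 to 132 CPM in tolerant and 790 and 814 in parental cells. GR3 minus tolerant for CASP14 ran from -1.01 to -0.26 over the alternative runs (main limma adjusted p = 0.104). PALMD was at 3.48 and 3.66 CPM in GR3 against 1.04 to 4.51 in tolerant and 26.6 and 52.1 in parental cells.

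MHC class I genes were above parental levels in both GR3 and tolerant cells. Class I molecules present peptides cut by the immunoproteasome and loaded with the help of TAP. Of 15 genes tested, 12 were higher and 0 lower in tolerant than in parental cells, and 13 were higher and 0 lower in GR3 than in parental cells (medians 0.89 and 0.99). HLA-B was at 55.8 and 68.7 CPM in GR3, 51.1 to 83.5 in tolerant and 7.95 and 7.04 in parental cells (GR3 minus tolerant -0.05 ± 0.24, adjusted p = 0.897). Its reads may be shared with other HLA class I genes, so its level is uncertain. B2M, the light chain, was lower in GR3 (214 and 248 CPM against 299 to 405), but did not pass without GR3 replicate 1. Between GR3 and tolerant cells 7 were higher and 2 lower, or 2 and 1 without GR3 replicate 2. The calls that stood in every alternative run were PSMB9 and PSMB10, catalytic subunits of the immunoproteasome: PSMB9 was at 6.39 and 5.23 CPM against 1.61 to 2.38 (1.16 ± 0.25, adjusted p = 0.00203), and PSMB10 at 4.67 and 6.61 against 2.05 to 2.76 (0.98 ± 0.18, adjusted p = 0.000707). A window before a PSMB10 start, chr16:67936851-67937100 on the minus strand and picked for its match, held an interferon response element. This element was in 3.02% of all windows and in 7 of 16 windows of this list.
PSMB10: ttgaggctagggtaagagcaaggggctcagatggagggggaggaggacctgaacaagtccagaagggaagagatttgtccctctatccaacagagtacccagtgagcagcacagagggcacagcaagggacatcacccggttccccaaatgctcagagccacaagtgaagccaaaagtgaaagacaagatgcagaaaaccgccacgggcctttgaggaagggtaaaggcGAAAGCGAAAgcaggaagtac

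**Figure D3:**
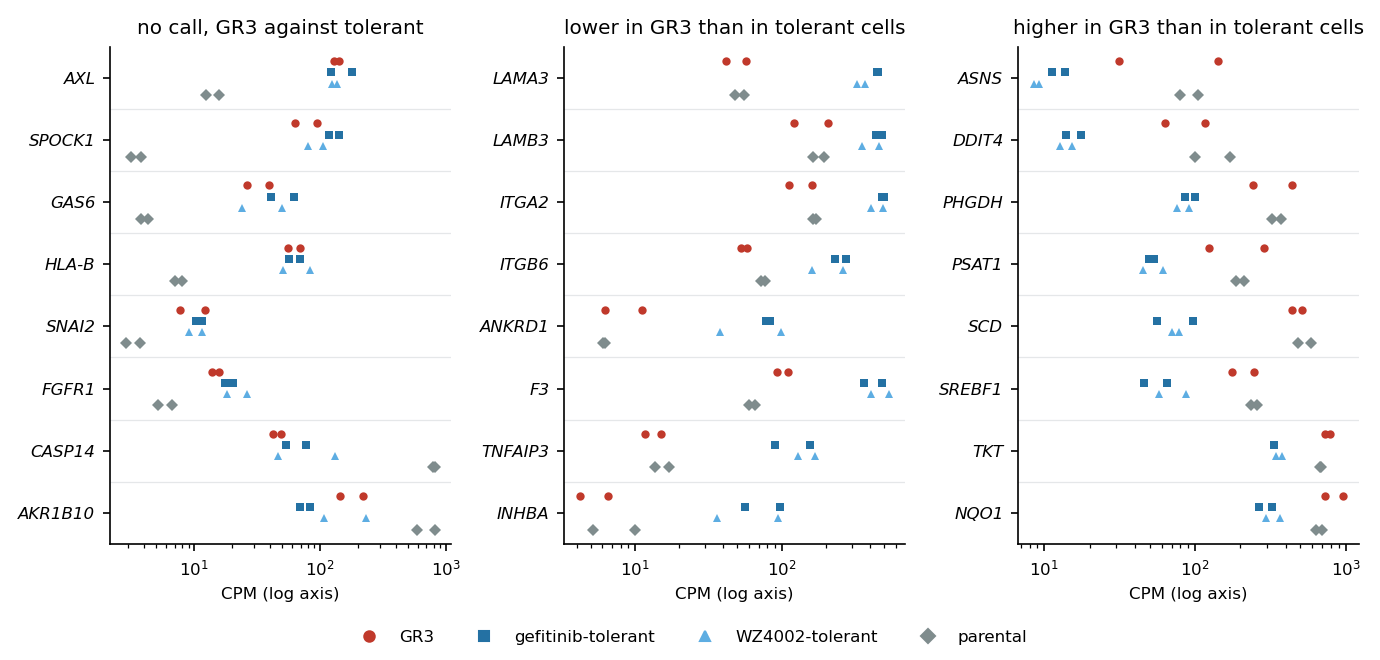
CPM in each vehicle library (log axis, 1 point per library) of 8 genes that did not pass between GR3 and tolerant cells, 8 that were lower and 8 that were higher in GR3. In the left panel GR3 points lie among or near the tolerant ones and away from the parental ones, and in the other panels they lie apart from the tolerant ones.

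Receptors and ligands of the EGFR family counted 3 higher and 3 lower of 17 (median 0.07). This is about the share over all genes, 16.8% higher and 16.3% lower. TGFA, an EGFR ligand, was at 18.3 and 30.6 CPM in GR3, 115 to 164 in tolerant and 41.1 and 48.5 in parental cells (-2.42 ± 0.24, adjusted p = 2.7e-06). ERBB3, the kinase-impaired partner receptor, was at 92.2 and 133 CPM against 31.3 to 51.7 in tolerant and 114 and 116 in parental cells (1.35 ± 0.22, adjusted p = 0.000266). EGFR itself was at 764 and 1011 CPM against 1136 to 1543 in tolerant and 658 and 554 in parental cells (-0.57 ± 0.21, adjusted p = 0.0477), a call that was lost when either GR3 library was left out (highest adjusted p over the alternatives 0.309). The hepatocyte growth factor receptor MET was lower in GR3 (77.6 and 54.6 CPM against 201 to 233, -1.73 ± 0.18, adjusted p = 5.16e-06) and below the parental 158 and 117. FGFR3 was higher, at 9.24 and 12.2 CPM against 1.44 to 1.9 (2.14 ± 0.28, adjusted p = 3.17e-05). ERK output genes had 3 higher and 2 lower of 21 (median 0.02), no more than the share over all genes in either direction. DUSP6, the ERK phosphatase used as a readout of ERK, was at 35.2 and 56.8 CPM against 17.7 to 36.3 in tolerant and 110 and 103 in parental cells (0.74 ± 0.36, adjusted p = 0.128).

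Genes of growth arrest and death were mixed. CDKN1B, which encodes the CDK inhibitor p27, was at 57.3 and 55.3 CPM in GR3, 21.8 to 26 in tolerant and 36.8 and 34.9 in parental cells (1.18 ± 0.11, adjusted p = 1.47e-06). CDK6, a G1 kinase, was at 33.2 and 31 CPM against 110 to 119 in tolerant and 33.8 and 39.5 in parental cells (-1.80 ± 0.14, adjusted p = 1.95e-07). Of 11 BH3-only and effector death genes 3 were higher and 3 lower, beside 16.8% and 16.3% over all genes. BBC3, encoding PUMA, was at 7.14 and 11.5 CPM against 1.13 to 3.34 in tolerant and 12.2 and 10.2 in parental cells (1.68 ± 0.25, adjusted p = 0.000102), and HRK was higher by 2.02. BCL2L11, encoding BIM, the BH3-only protein on which killing of these cells by EGFR inhibitors is known to depend, was at 19.6 and 30.4 CPM against 21.1 to 23.6 (0.14 ± 0.16, 95% interval -0.19 to 0.47, adjusted p = 0.543). MCL1 was at 146 and 156 CPM against 143 to 151.

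DNA replication genes depended on the GR3 library. The list median relative to parental cells was 0.51 in GR3 replicate 1 and -0.79 in replicate 2, against 0.29 to 0.58 in tolerant cells. Of 22 genes 3 were lower and 0 higher, 16 were lower without GR3 replicate 1, and 1 was higher and 0 lower without GR3 replicate 2. PCNA, the sliding clamp of the replication fork, shows the split at 117 and 43.1 CPM in GR3 against 138 to 178 in tolerant cells. The median of 21 mitosis genes was 0.67 in GR3 replicate 1 and -0.54 in replicate 2, against 0.06 to 0.47 in tolerant cells. These levels differed between the GR3 libraries, and their part in the other results was not tested.

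Of 20 epithelial genes, 7 were lower and 2 higher in GR3, with a median of -0.05. CDH1, encoding E-cadherin, did not pass, at 148 and 192 CPM in GR3 against 145 to 161 in tolerant cells (0.12 ± 0.15, adjusted p = 0.579). CLDN1, a tight junction claudin, was at 18.1 and 28.3 CPM against 121 to 197 in tolerant and 57.8 and 73.4 in parental cells (-2.60 ± 0.31, adjusted p = 1.34e-05). EPCAM was at 192 and 152 CPM against 314 to 409, and the membrane protease PRSS8 at 1.98 and 2.59 against 9.99 to 20.3. VIM, the mesenchymal intermediate filament, was low in every group, at 7.73 and 2.8 CPM in GR3 against 4.51 to 9.12. Among drug tolerance and stem markers 7 of 19 were lower and 1 higher. They included ABCG2, a drug efflux pump (6.96 and 4.93 CPM against 22.4 to 37.4), ALDH1A3 (126 and 106 against 465 to 566) and IL1RL1 (7.17 and 8.21 against 33.5 to 57.4, with parental cells at 92.8 and 78.2), while ALDH1A1 was at 0.06 to 0.12 CPM in all 6 libraries.

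Other lists were split or depended on a library. Of 25 glycolysis and hypoxia genes, 7 were lower and 2 higher in GR3, and 12 and 2 were lower without GR3 replicate 1 and replicate 2, respectively. Of 17 FOXO targets and PI3K brakes 5 were higher and 5 lower, the latter 3 without either GR3 library. Of 16 keratins 5 were lower and 1 higher, and of 19 mucin and secretory genes 6 were lower and 3 higher, with 2 lower without GR3 replicate 1. Immediate-early and heat shock genes, which respond to handling, had 3 higher and 3 lower of 14, beside 16.8% and 16.3% over all genes. Among them EGR1, a transcription factor that ERK induces, was at 10.2 and 36.5 CPM in GR3 against 1.29 to 4.41 in tolerant and 1.52 and 2.78 in parental cells (2.49 ± 0.37, adjusted p = 0.000125).

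To ask how far GR3 stood from the tolerant and from the parental state, genes were chosen in libraries that this comparison does not use. A gene was taken if it differed at least 2-fold, with an adjusted p under 0.05, between gefitinib-tolerant and parental cells both given gefitinib, and in the same direction between WZ4002-tolerant and parental cells both given WZ4002. This gave 706 genes higher (4.56%) and 569 lower (3.67%) in tolerant cells. Just inside the fold limit was SNHG26 (1.00 and 1.02 on the log2 scale), and just outside was LCP1 (0.998 and 1.58). Only the estimate of spread is shared with the vehicle libraries, though the populations are the same.

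In vehicle, the 706 genes were higher in tolerant than in parental cells by a median of 0.76, and 393 (55.7%) passed. Against tolerant cells GR3 was lower in 295 of them (41.8%) and higher in 41 (5.81%), with a median of -0.52. Against parental cells GR3 was higher in 131 (18.6%) and lower in 34 (4.82%), with a median of 0.18. Over all genes, 16.8% were higher and 16.3% lower in GR3 than in tolerant cells. Against parental cells the shares over all genes were 9.77% and 11.1% for GR3, and 12.8% and 13.1% for tolerant cells. The 569 genes lower under drug had a median of -0.82 in tolerant against parental vehicle cells, and 350 (61.5%) passed. GR3 was higher than tolerant cells in 207 of them (36.4%) and lower in 56 (9.84%), with a median of 0.36, and lower than parental cells in 192 (33.7%) and higher in 17 (2.99%), with a median of -0.39. Members of the higher set differed among themselves. In FN1, INHBA and ANKRD1 the log2 difference of GR3 from parental cells was 0.75, -0.40 and 0.39, where that of tolerant cells was 6.02, 3.02 and 3.31. In AXL and SPOCK1 it was 3.18 and 4.13, beside 3.22 and 4.63 in tolerant cells. In the lower set, the aldehyde dehydrogenase ALDH3B2 was at 9.64 and 16.1 CPM in GR3, between 0.71 to 2.33 in tolerant and 27.2 and 35.0 in parental cells, and passed against both. CP, encoding the copper carrier ceruloplasmin, was at 0.98 and 1.45 CPM against 0.03 to 0.33 in tolerant and 25.8 and 22.4 in parental cells, and passed against parental cells (-3.51, adjusted p = 0.0011) but not against tolerant ones (0.97, adjusted p = 0.197).

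These counts and medians moved with single libraries. The GR3 minus parental median of the 706 was 0.01 without GR3 replicate 1 and 0.41 without GR3 replicate 2. That of the 569 was -0.27 and -0.54. Without GR3 replicate 2, GR3 was lower than tolerant cells in 196 of the 706 and higher in 121 of the 569. Without parental replicate 2, 212 of the 569 were lower in tolerant than in parental cells. With the spread taken from the compared groups alone, GR3 was lower than parental cells in 120 of the 569.

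GR3 was also set against the midpoint of the tolerant and parental means, so that a call says which side of the middle it lay on. A call does not say that GR3 was near either group. Genes where GR3 lay beyond both groups, or with no call between these groups in vehicle, are counted too. TCIM, in the 706, counted on the parental side, and KRT13, in the 569, on the tolerant side. In both genes GR3 was far below tolerant and parental cells. Over all genes 4045 (26.1%) were called, 2015 above and 2030 (13.1%) below the midpoint. Of the 706, GR3 was called on the tolerant side in 76 (10.8%) and on the parental side in 153 (21.7%), with a median of -0.18. Of the 569, it was on the tolerant side in 118 (20.7%) and on the parental side in 84 (14.8%), with a median of 0.01. In the 569 the balance turned with the GR3 library. Without replicate 2 the 706 gave 61 tolerant-side and 83 parental-side calls (median 0.04), and the 569 gave 91 and 31. Without replicate 1 the 706 gave 72 and 175 and the 569 gave 87 and 103. With weights by group the 706 gave 53 and 79, and the 569 gave 79 and 46.

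**Figure D4:**
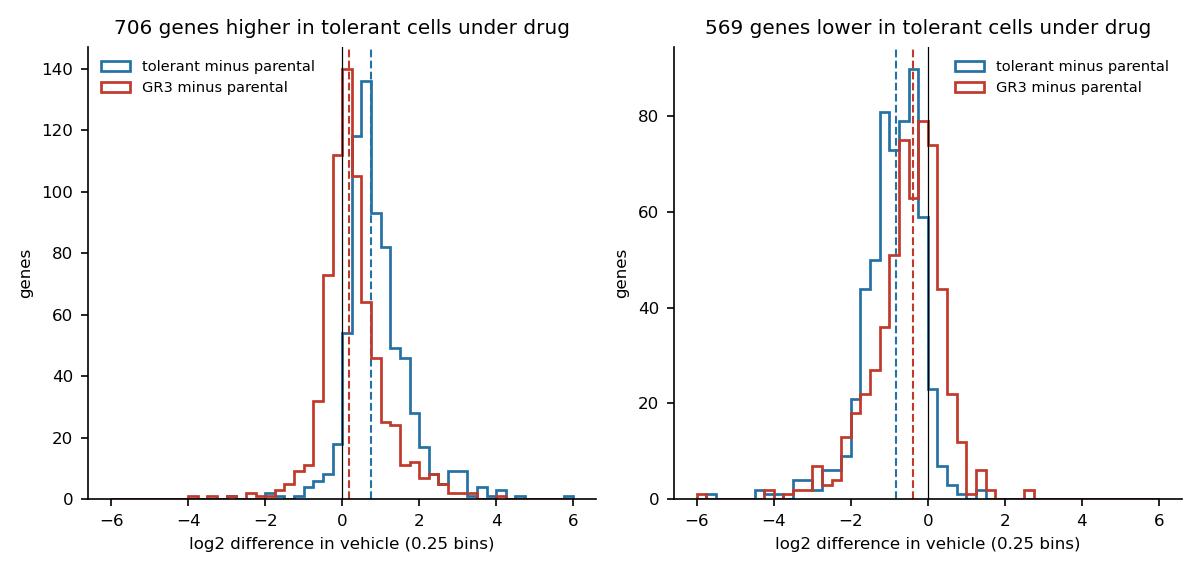
Histograms of log2 differences in vehicle (0.25 bins) for the 706 genes higher and the 569 lower in tolerant than in parental cells under drug, with dashed lines at medians. GR3 minus parental (red) centres at 0.18 and -0.39, between 0 and the medians of tolerant minus parental (blue), 0.76 and -0.82. Without GR3 replicate 1 the red median of the 706 was 0.01, and without GR3 replicate 2 it was 0.41.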

How the data were processed

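RNA-seq was done on 22 libraries in 11 groups of 2, and 6 vehicle libraries were compared here. Per the submitters' processing notes, STAR, HTSeq and hg19 were used; versions, roles and strand setting are not given in the sources used here. The deposited values are CPM by the authors for 17165 genes, 15962 of them with a symbol in the gene name table and 0 of the values equal to 0, so genes silent in some library are not analysed here. Values were whole multiples of 1 read's worth in 100.0% of cases within the rounding error of 0.005 CPM, which gave the depths. From the deposited CPM, log2(CPM + 1) was fitted with limma 3.58.1 in R 4.3.3 (11 group means, trended variance, two-sided), after a filter of CPM at least 1 in at least 2 libraries that left 15485 genes and removed 1680. The contrast was the GR3 mean minus the equally weighted mean of both tolerant groups. P-values were adjusted by Benjamini-Hochberg over all genes tested, with a threshold of 0.05. Errors after ± are standard errors of the difference from this fit.

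Members and lists were chosen with earlier results of these data known. Genes were named as the 10 largest differences each way (mean CPM at least 5, passing against each tolerant group, no overlap of libraries), up to 4 members with the lowest p in each list, set receptor, death and tolerance genes, and the 6 highest and 6 lowest tolerance genes chosen under drug. Others were chosen after their values were seen, among them CST4, ICAM1, ATF5, SREBF2, AKR1B10, GAS6, SNAI2, HLA-B, B2M and PCNA. The fit was tested on simulated data. Alternatives were another pseudocount, no filter, median-of-ratios scaling, a replicate block, spread from the compared groups alone, weights by group, limma-voom on recovered reads, and leaving out each library. Promoter windows are from RefSeq (GRCh38.p14) and no coordinates of the authors' build were used. Results for a few genes are not reported here.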

Additional observations from a re-analysis of the deposited data

Results flagged for a closer look

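KISS1 was flagged because the difference between GR3 and WZ4002-tolerant cells changed with treatment. In vehicle the log2 difference was 3.29, and in WZ4002 for 24 h it was 0.92, so the change between treatments was -2.36 ± 0.36 (limma interaction, adjusted p = 0.0095). Under WZ4002 KISS1 was at 3.92 and 1.73 CPM in GR3 and at 0.72 and 1.17 in WZ4002-tolerant cells, against 17.3 and 14.5 and 0.47 and 1.03 in vehicle. It was the 1 that passed among 20 named genes tested in this way, and over all genes 154 (0.995%) passed. Those 154 included other genes described above. The change was -3.21 in CHAC1, -2.44 in PSAT1, -1.76 in PHGDH and -2.75 in EGR1 (limma interaction, adjusted p = 0.0102, 0.0157, 0.0299 and 0.0431). In ITGB6 the change was -2.51 (adjusted p = 0.0197), with a larger difference under WZ4002 than in vehicle. KISS1 was named for its large difference in vehicle, and the change is measured from that same difference. A smaller difference under WZ4002 was therefore favoured by the choice.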

How the results depend on the processing

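The labels give each group replicates 1 and 2 but do not say that a number marks a shared culture or day, so the numbers were not taken as pairs. The differences between replicates 1 and 2 correlated across genes at 0.14 to 0.26 among the 3 compared groups and at -0.46 to 0.63 over all 11 groups. With a replicate block 5359 genes were called between GR3 and tolerant cells beside 5132, and 0 of the 126 named genes called lost the call. The main run pools the spread over all 11 groups. With the spread of the compared groups alone, 3517 genes were called between GR3 and tolerant cells. GR3 against tolerant gave 3262 with weights by group and 2979 to 5116 with 1 library left out. GR3 against gefitinib-tolerant gave 1550 with the spread of the compared groups alone, 2209 with that spread and the replicate block, 2569 with weights and 1963 to 4210 with 1 library left out, beside 3890. GR3 against WZ4002-tolerant gave 1659, 2689 with the block, and 2444 to 4562 with 1 left out, beside 4184. The tolerant groups differed in 0 to 1 genes. Tolerant against parental gave 2054 to 3743 with 1 left out, beside 4016. GR3 against parental gave 1046 with its own spread, 2028 with weights and 1827 to 3168 with 1 left out, beside 3228, and the midpoint 2199 with weights and 2244 to 4103 with 1 left out, beside 4045. Among the runs with 1 library left out, the lowest counts came without GR3 replicate 2, gefitinib-tolerant replicate 1 or parental replicate 1. The cause was not tested. Of the 126 named genes, 17 lost the call without GR3 replicate 2, 0 to 5 in each other alternative, and 0 reversed. Signs turned with 1 library left out only in genes that had not passed. The differences then ran from -1.12 to 0.09 in CDK1, -1.26 to 0.27 in CCNA2, -1.13 to 0.32 in TTK, -0.97 to 0.23 in TPX2, -0.17 to 0.44 in BCL2L11, -1.10 to 0.10 in VIM, -0.07 to 0.31 in CDH1, -0.18 to 0.10 in AXL, -0.03 to 0.01 in ALDH1A1 and -0.26 to 0.29 in BCL2. The sign turned without GR3 replicate 2 in CDK1, CCNA2, TTK, TPX2, BCL2L11, AXL (0.03), VIM and CDH1, without gefitinib-tolerant replicate 1 in AXL and ALDH1A1 (0.00), without WZ4002-tolerant replicate 1 in ALDH1A1, and without GR3 replicate 1 or WZ4002-tolerant replicate 2 (-0.00) in BCL2. Limma-voom and the replicate block with the compared spread were added after seeing the data, and the planned count test on recovered reads was not run. With 2 libraries a group and GR3 the most variable of them, the number of libraries limits the precision.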

Other observations

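Interferon-stimulated genes counted 6 higher and 3 lower of 22 in GR3 against tolerant cells, with a median of 0.11. BST2, the membrane tether that retains viruses, was at 10.4 and 8.64 CPM in GR3, 0.12 to 0.77 in tolerant and 0.83 and 0.60 in parental cells (2.90 ± 0.32, limma adjusted p = 8.32e-06). MX1, an antiviral GTPase, was at 5.32 and 3.96 CPM against 0.42 to 1.03 (1.72 ± 0.19, adjusted p = 6.98e-06). IFIT2, which binds viral RNA, went the other way, at 2.64 and 2.90 CPM against 11.4 to 15.5 (-1.89, adjusted p = 8.14e-06). In each of these genes the GR3 libraries did not overlap the tolerant ones. Over all genes, the GR3 libraries were all above the tolerant ones in 24.7% and all below in 23.4%.

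Notch and WNT genes counted 4 higher and 5 lower of 19, with a median of -0.14. DKK1, a secreted WNT inhibitor, was at 13.8 and 4.62 CPM in GR3, 70.2 to 120 in tolerant and 25 and 21.8 in parental cells (-3.27 ± 0.33, adjusted p = 3.22e-06). JAG1, a Notch ligand, was at 12.2 and 12.3 CPM against 41.6 to 63.9, and WNT5A, a non-canonical WNT ligand, was higher at 42.0 and 70.8 CPM against 14.4 to 22.4. Among alveolar and foregut genes 5 of 11 were higher and 2 lower, with 3 higher without GR3 replicate 2. ABCA3, the lipid transporter of surfactant-making cells, was at 13.8 and 16.3 CPM in GR3 against 1.60 to 3.14 in tolerant and 2.66 and 4.09 in parental cells (2.20 ± 0.21, adjusted p = 2.17e-06), while GATA6, a foregut transcription factor, was at 4.64 and 4.62 CPM against 21.2 to 25 (-2.04 ± 0.17, adjusted p = 4.92e-07). NCAM1, a neural adhesion molecule, was at 27.7 and 68.9 CPM against 8.66 to 12.3 (1.98 ± 0.26, adjusted p = 3.43e-05).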
